A study of Homo sapiens with 16 samples.

Results

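Gene expression in H1 cells that had received NODAL was compared with expression in H1 cells that had received TGFb, both without 2-deoxyglucose (2DG, a glucose analog that blocks glycolysis). The comparison rests on 4 of the 16 RNA sequencing libraries of the study, 2 of E7+NODAL and 2 of E7+TGFb, taken by their labels, and on all 16714 genes tested of the 17738 in the table. H1 is an established human embryonic stem cell line, here of wild-type genotype. It was grown in E8 medium, which holds FGF2 and TGFb, before the treatments. The E7+NODAL cells spent 24 h in E7, which is E8 lacking TGFb, with NODAL at 100 ng/mL. The E7+TGFb cells spent 24 h in the same E7 with TGFb at 1.74 ng/mL. Each ligand was given at 1 dose and the doses differ, so the kind of ligand and its amount cannot be told apart. The other libraries were plain E7, E7 with Activin A, and all 4 media with 2DG at 3 mM, 2 libraries each.

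NODAL and TGFb are secreted proteins of the same family. NODAL binds the type II activin receptors ACVR2A and ACVR2B and the type I receptors ACVR1B and ACVR1C with the help of a co-receptor, TDGF1, whereas TGFb binds TGFBR2 and TGFBR1. Both receptor pairs phosphorylate SMAD2 and SMAD3, which join SMAD4 and enter the nucleus, and this signal helps to keep human embryonic stem cells undifferentiated. NODAL induces its own gene and the genes of its secreted inhibitors LEFTY1 and LEFTY2.

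Values are normalised read counts, that is, each gene's reads scaled by the size factor of the library, and n = 2 libraries a group throughout. A gene was called when its adjusted p was under 0.05 in limma fitted to all 16 libraries, and "rose" or "fell" is used of called genes only, for E7+NODAL relative to E7+TGFb. The labels do not say whether the 2 libraries of a group were separate cultures, so the p-values measure only the spread between these samples. In bulk RNA, fewer cells of a kind and less RNA per cell cannot be told apart.

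The libraries compared held 14600479 and 16236270 reads in E7+NODAL and 15415334 and 17325632 in E7+TGFb. The comparison was picked partly for its close replicates: their difference was 3.27 times the counting variance in E7+NODAL and 1.55 times in E7+TGFb, against 50.3 times in E7 with Activin A, whose libraries widen the error of the shared fit. Mitochondrial genes held 6.62 and 6.69% of the reads in E7+NODAL, and 5.56 and 5.46% in E7+TGFb. The stem cell markers were high in every library compared, with POU5F1 at 41802 and 35023 in E7+NODAL and 36302 and 35901 in E7+TGFb, and NANOG at 4920 and 4748 in E7+NODAL and 4701 and 4763 in E7+TGFb. Transcript GC content moved with the comparison: Spearman's rho between a gene's GC content and its log2 fold change was 0.34 over 16335 genes. Counts after the libraries were centred by GC content, a correction added after the data were seen, are therefore given for the gene groups with calls, and the part GC content played in each result was not tested.

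Of the 16714 genes tested, 1262 were called (7.55%), of which 690 rose (4.13%) and 572 fell (3.42%) in E7+NODAL. The counts of the gene lists below are to be read against these shares. The median log2 fold change of the called genes was 0.59 in size, and 269 passed a log2 fold change of at least 1 as well, 188 higher and 81 lower. The median over all genes tested was 0.01. The E7+NODAL and E7+TGFb libraries did not overlap for 66.8% of all genes tested, 33.4% in the higher direction and 33.5% in the lower, so a lack of overlap alone is common. A fit of the 12 libraries without Activin A called 4233 genes (25.3%), 11.6% higher and 13.7% lower, and held all 1262. A fit of the 4 libraries alone called 5792 (34.7%) and held 1261 of the 1262. Both fits set the same log2 fold changes against a smaller error, so holding these calls is no separate support for them. Since the 4 libraries were picked partly for close replicates, the error and the count of their own fit are affected by that choice. After GC centring 730 were called, 405 higher and 325 lower, of which 573 were shared with the 1262 and all 573 kept their direction. Leaving out E7+NODAL replicate 1 left 83 calls, E7+NODAL replicate 2 113, E7+TGFb replicate 1 134 and E7+TGFb replicate 2 132. An arm then has 1 library, which is assumed to vary like the other groups. Without a library of E7+NODAL+2DG there were 742 and 743 calls, without one of E7+TGFb+2DG 796 and 797, and without one of Activin A 3197 and 3205. When all libraries were scaled to the same total, 1075 genes rose and 300 fell, so the balance of directions depends on the scaling.

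**Figure D1:**
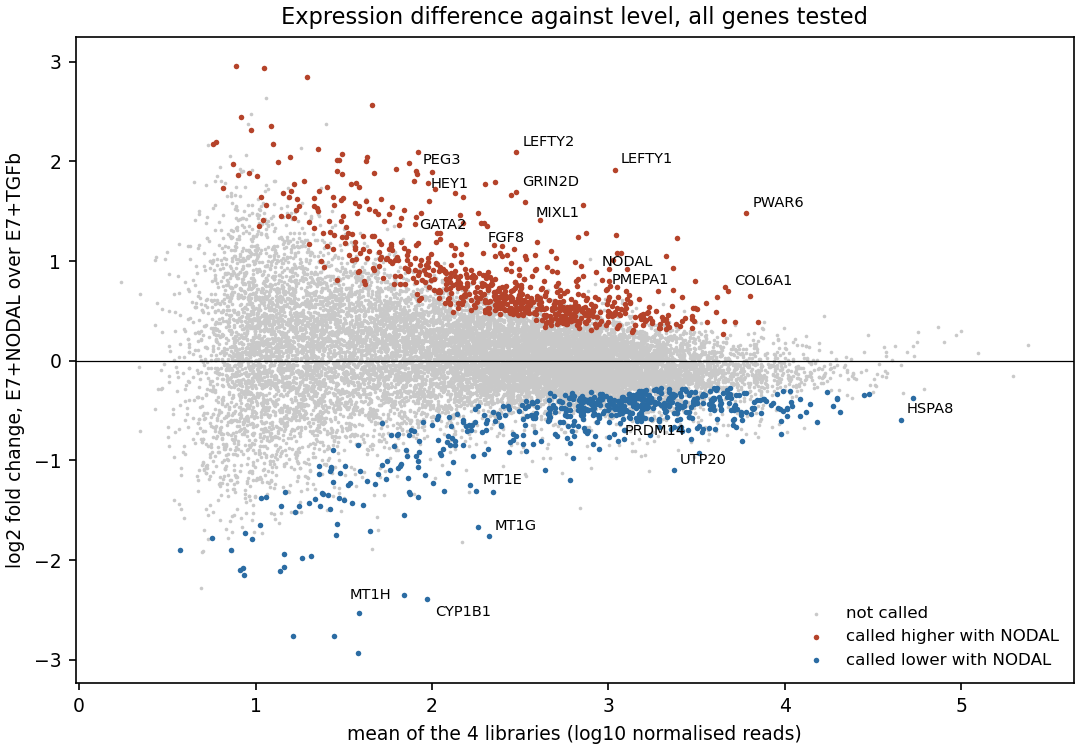
Log2 fold change of E7+NODAL over E7+TGFb (vertical axis) against the mean of the 4 libraries (horizontal axis, log10 normalised reads) for the 16714 genes tested. Red points are the 690 genes called higher with NODAL and blue points the 572 called lower; LEFTY1 and LEFTY2 lie near 2 above the zero line and CYP1B1 and MT1H below -2.

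The called genes were also set beside plain E7, the medium with neither ligand. On the log2 scale the E7 mean lay nearer the E7+TGFb mean for 1140 of the 1262 called genes (90.3%), against 60% of all genes tested. It lay nearer E7+NODAL for 122 called genes. The E7 mean was between the 2 ligand means for 687 called genes, beyond E7+TGFb for 573 and beyond E7+NODAL for 2. Of all genes tested these positions held 4903, 7257 and 4554. For the 690 genes that rose the count nearer E7+TGFb was 620, and for the 572 that fell it was 520. These are positions of group means and were not tested. In GC content the plain E7 libraries lay on the side of E7+TGFb, as given below, and no count of positions after GC centring is given.

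The secreted inhibitors of NODAL and the NODAL gene itself rose. LEFTY1, a secreted inhibitor that blocks NODAL from its receptors, was at 1749 and 1691 normalised reads in E7+NODAL and at 446 and 463 in E7+TGFb. Both NODAL libraries lay far above both TGFb libraries and above the plain E7 mean of 538, and the log2 fold change was 1.92 (SE 0.26, adjusted p = 0.0017 in limma). LEFTY2, which has the same role, was at 535 and 442 in E7+NODAL and at 102 and 126 in E7+TGFb (2.09, SE 0.35, adjusted p = 0.0053). The groups did not overlap, and the plain E7 mean was 131. The NODAL gene itself was at 1106 and 1093 in E7+NODAL and at 616 and 573 in E7+TGFb, with no overlap (0.89, SE 0.18, adjusted p = 0.014), while plain E7 averaged 795, above the E7+TGFb mean of 595. LEFTY1 (chr1:225886282-225911382, minus strand, GENCODE on GRCh38) and LEFTY2 (chr1:225936598-225941489, minus strand) are near-identical neighbours, so how reads were shared between them is uncertain.

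In the list of NODAL ligand and extracellular feedback genes these 3 of the 9 tested members rose and none fell, and the median log2 fold change was 0.32 against 0.01 for all genes (0.08 after GC centring, with the same 3 and 0 called). The co-receptor TDGF1 was at 9621 and 9296 in E7+NODAL and at 9862 and 9990 in E7+TGFb (-0.07, adjusted p = 0.72). GDF3, a related ligand, had a log2 fold change of 0.35, and the convertase FURIN, which cleaves NODAL precursor, 0.31 (adjusted p = 0.30 and 0.075 in limma). The activin antagonists FST and FSTL3 were at -0.28 and 0.32, neither called. LEFTY1 kept its call without any 1 of the 4 libraries. The call of LEFTY2 ended without E7+NODAL replicate 1 (adjusted p = 0.077) and without E7+TGFb replicate 1 (0.065), and that of NODAL without any 1 of E7+NODAL replicate 1 or 2 or E7+TGFb replicate 1 or 2 (0.083 to 0.11).

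**Figure D2:**
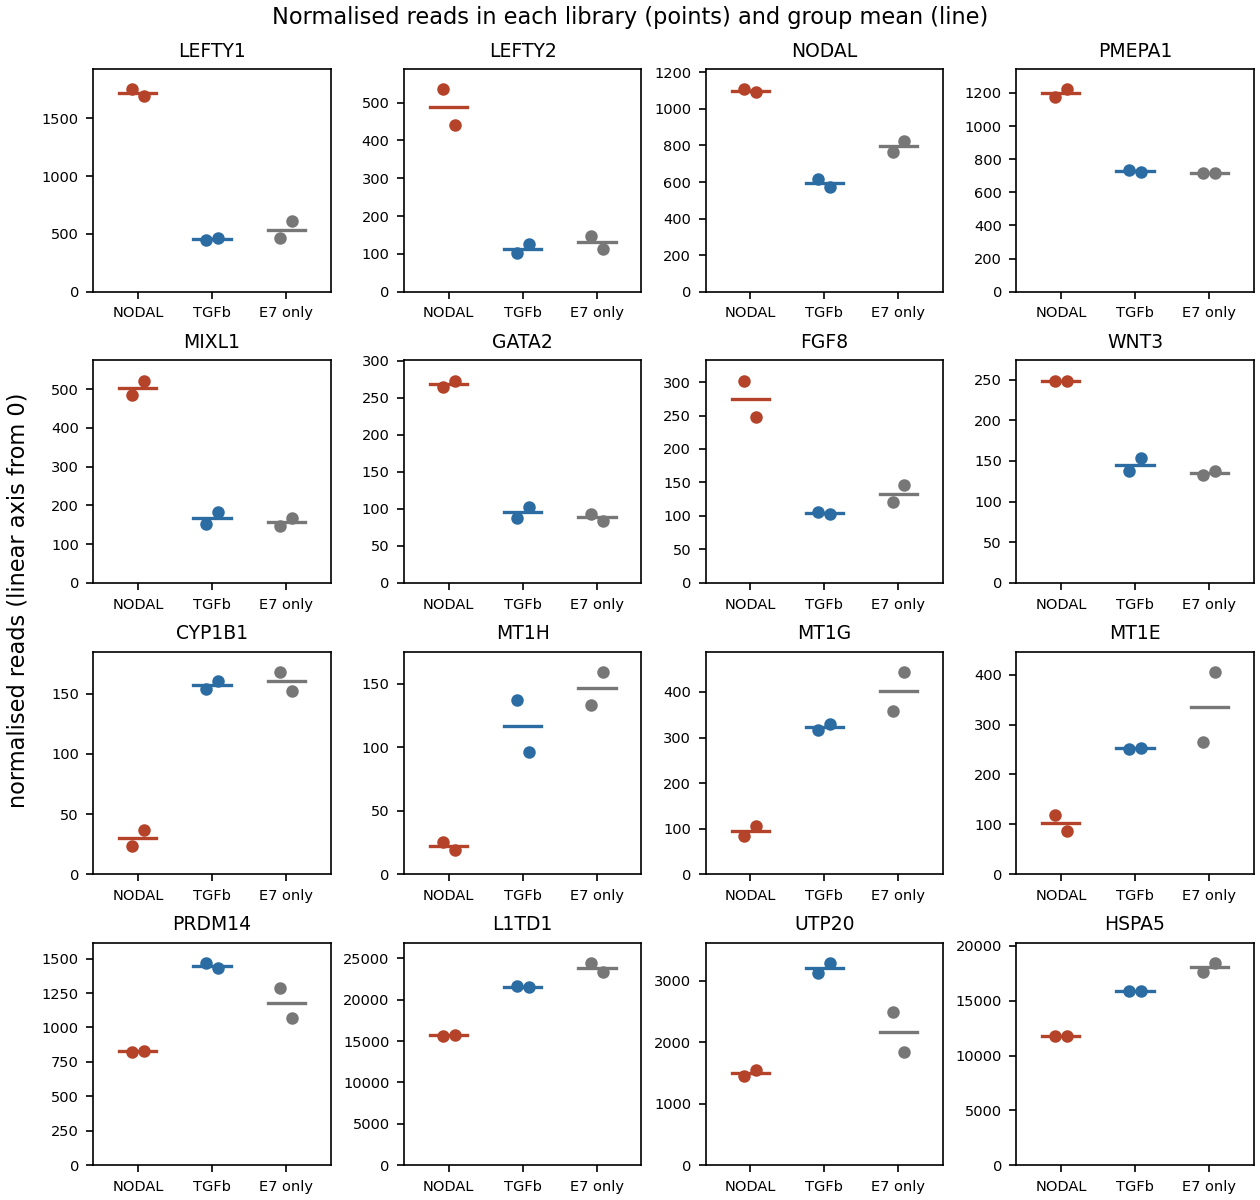
Normalised reads of 16 named genes in each library (points, n = 2 a group) with the group mean (line), on linear axes from 0, for E7+NODAL, E7+TGFb and plain E7. In all 16 panels the 2 E7+NODAL libraries lie apart from the 2 E7+TGFb libraries, above them for LEFTY1, LEFTY2, NODAL, PMEPA1, MIXL1, GATA2, FGF8 and WNT3 and below them for the other 8 genes.

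Few receptors and SMADs were called, 1 of 13 higher and none lower, where 4.13% of all genes tested rose and 3.42% fell. Of 13 receptors and transducers tested, SMAD4, the shared partner SMAD, rose, at 1487 and 1708 in E7+NODAL and 1197 and 1286 in E7+TGFb (0.36, SE 0.10, adjusted p = 0.046), and none fell. Its call ended without any 1 of the 4 libraries (adjusted p 0.11 to 0.30) and without any 1 library of E7, E7+2DG, E7+NODAL+2DG or E7+TGFb+2DG. The NODAL receptors ACVR1B, ACVR2A and ACVR2B had log2 fold changes of -0.05, 0.24 and 0.05, and ACVR1C, at few reads, of -0.56 (16.9 and 19.8 in E7+NODAL, 21 and 35.6 in E7+TGFb; adjusted p = 0.26). The TGFb receptors TGFBR1 and TGFBR2 were at 0.07 and 0.22. TGFBR3, a co-receptor that presents TGFb, was at 139 and 110 in E7+NODAL and 217 and 183 in E7+TGFb (-0.68, adjusted p = 0.081). ZFYVE9, which brings SMAD2 and SMAD3 to the receptor, was at 776 and 724 in E7+NODAL and 1008 and 1071 in E7+TGFb (-0.47, adjusted p = 0.18). Both were called lower without the Activin A libraries (adjusted p = 0.0025 and 0.0017 in limma). In that fit 2 of the 13 genes were higher and 2 lower, where 11.6% of all genes tested were higher and 13.7% lower. SMAD2, SMAD3 and FOXH1, a DNA-binding partner of SMAD2 and SMAD3, were at 0.10, 0.24 and 0.28. Beside SMAD4 none of these genes was called in the 16 libraries. The median of the list was 0.10, with 1 gene called after GC centring as well.

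Among 13 intracellular brakes on SMAD2 and SMAD3, 2 related membrane proteins rose and none fell. PMEPA1, which holds SMAD2 and SMAD3 away from the receptor, was at 1174 and 1220 in E7+NODAL and at 736 and 725 in E7+TGFb (0.71, SE 0.10, adjusted p = 0.0025). Its 2 TGFb libraries were close to the plain E7 mean of 717, and its call held without any 1 of the 4 libraries. LDLRAD4, which acts in the same way, was at 185 and 186 in E7+NODAL and at 69.3 and 101 in E7+TGFb (1.14, adjusted p = 0.012). Its call ended without E7+NODAL replicate 1 or 2 or E7+TGFb replicate 1 (0.090 to 0.13). SMAD7, the inhibitory SMAD that TGFb signals commonly induce, was at 1088 and 1068 in E7+NODAL and at 1008 and 1062 in E7+TGFb, with a log2 fold change of 0.06 that was not called. SKI, SKIL, SMURF1 and SMURF2, which repress or degrade SMADs, lay between -0.10 and 0.10. SMAD6, a second inhibitory SMAD, was at 273 and 273 in E7+NODAL and 173 and 183 in E7+TGFb (0.61, adjusted p = 0.059), a difference that DESeq2 called (0.037). BAMBI, a decoy receptor, was at 0.45 (adjusted p = 0.084) and TGIF1, a repressor that binds SMAD2 and SMAD3, at 0.30 (0.11). All 3 were called when libraries were scaled to the same total (0.040 to 0.043). The median of the brakes was 0.12, and 3 were called higher after GC centring, TGIF1 among them (0.049). Without the Activin A libraries 5 of the 13 were called higher, against 11.6% of all genes tested.

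LTBP4, LTBP3 and NRROS, genes of TGFb storage, rose, while the other storage genes and the ligand genes of the list did not pass the test. LTBP4, a matrix protein that anchors latent TGFb, was at 526 and 564 in E7+NODAL and at 235 and 242 in E7+TGFb (1.19, SE 0.16, adjusted p = 0.0016). LTBP3, of the same family, was at 191 and 162 in E7+NODAL and at 89.2 and 98.4 in E7+TGFb (0.90, adjusted p = 0.0078), and NRROS, which also holds latent TGFb, rose by 1.08 (51.8 and 54.7 in E7+NODAL, 23.1 and 26.2 in E7+TGFb; adjusted p = 0.031). These were 3 of 14 genes tested, with 0 lower and a median of 0.04. After GC centring 1 of the 14 was called: LTBP3 was at 0.48 (adjusted p = 0.16) and NRROS at 0.85 (0.10). Quantile normalisation also ended the call of NRROS (0.060). LTBP1, LTBP2 and LRRC32, further genes of TGFb storage, were at -0.0029, 0.54 and -0.42 (adjusted p = 0.99, 0.16 and 0.68 in limma). NRROS lost its call without any 1 of the 4 libraries (0.12 to 0.18), and LTBP3 without E7+NODAL replicate 1 or E7+TGFb replicate 1 or 2 (0.058 to 0.10). TGFB1 and TGFB2 were at 0.13 and 0.21 and INHBA, a subunit of activin, at -0.98 (adjusted p = 0.21), none of them called.

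The classical TGFb response, genes of matrix, cytoskeleton and growth arrest known from other cell types, did not move one way. Of 20 genes tested, ITGA5, an integrin that binds fibronectin, rose (335 and 377 in E7+NODAL, 254 and 217 in E7+TGFb; 0.59, adjusted p = 0.044). The groups did not overlap. Its call ended without any 1 of the 4 libraries (0.12 to 0.28), and with any 1 library of E7+2DG, E7+NODAL+2DG or E7+TGFb+2DG left out. After GC centring it was at 0.53 (adjusted p = 0.086) and was not called. The smooth muscle gene TAGLN was at 566 and 479 in E7+NODAL and 658 and 745 in E7+TGFb (-0.43), and CTGF, THBS1 and the fibronectin gene FN1 were at -0.55, -0.56 and -0.38, none called. In all 1 of the 20 genes rose and 1 fell, where 4.13% of all genes tested rose and 3.42% fell. The median of the list was 0.04, and -0.12 after GC centring, with 0 called. Without the Activin A libraries the list had 3 higher and 8 lower, against 11.6% and 13.7% of all genes tested.

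Several mesendoderm regulators, genes that mark the first step of a stem cell toward mesoderm and endoderm, rose. MIXL1, a homeobox gene of the primitive streak, was at 486 and 522 in E7+NODAL and at 153 and 182 in E7+TGFb (1.59, SE 0.21, adjusted p = 0.0016). FGF8, a growth factor of the streak, was at 302 and 248 in E7+NODAL and at 106 and 103 in E7+TGFb (1.38, adjusted p = 0.0028). WNT3, the WNT ligand that starts streak formation in the mouse, was at 248 and 249 in E7+NODAL and at 137 and 154 in E7+TGFb (0.77, adjusted p = 0.0078). None of the 3 overlapped between the groups, and their plain E7 means, 158, 133 and 135, were close to E7+TGFb. GATA4, at 12.7 and 19.8 in E7+NODAL and 2.1 and 8.43 in E7+TGFb, was called at a few reads (1.64, adjusted p = 0.049), and OTX2, a regulator of anterior fate, fell (152 and 157 in E7+NODAL, 214 and 210 in E7+TGFb; -0.45, adjusted p = 0.045).

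Several streak genes that mark further commitment were listed at few reads. EOMES was at 15.8 and 12.3 in E7+NODAL and 14.7 and 15 in E7+TGFb. T, the gene of brachyury, was at 9.51 and 6.6 in E7+NODAL and 3.15 and 3.75 in E7+TGFb, and FOXA2 at 3.17 and 3.77 in E7+NODAL and 8.39 and 3.75 in E7+TGFb. None of them was called, and EOMES and FOXA2 overlapped between the groups. GSC, a NODAL target of the organizer, was at 40.1 and 43.3 in E7+NODAL and 21 and 18.7 in E7+TGFb (1.04, adjusted p = 0.10). In all, 4 of the 12 mesendoderm genes tested rose and 1 fell, with a median of 0.61 against 0.01 for all genes. The list had 18 genes, of which 12 were in the table, so the median covers part of it. After GC centring 3 of 11 rose and none fell, with a median of 0.50: GATA4 was at 1.43 (adjusted p = 0.099) and OTX2 at -0.32 (0.17). MIXL1 kept its call without any 1 of the 4 libraries. FGF8 lost it without E7+NODAL replicate 1 (0.054), WNT3 and OTX2 without any of the 4 (0.050 to 0.23), and GATA4 without E7+NODAL replicate 1 or 2 or E7+TGFb replicate 1 (0.14 to 0.37). edgeR and DESeq2 did not call GATA4 (adjusted p = 0.069 and 0.084) or OTX2 (0.051 and 0.063), quantile normalisation ended the call of GATA4 (0.073) and scaling to the same total that of OTX2 (0.073).

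Regulators outside this list rose as well. GATA2, a transcription factor that responds to BMP, was at 264 and 273 in E7+NODAL and at 88.1 and 103 in E7+TGFb (1.49, SE 0.17, adjusted p = 0.00065), and its call held without any 1 of the 4 libraries. It was the 1 gene called of 11 BMP targets, before and after GC centring, and their median was 0.22: the direct BMP targets ID1, ID2 and ID3 were at -0.01, 0.22 and -0.39. HEY1, a Notch target, was at 316 and 305 in E7+NODAL and at 93.4 and 87.1 in E7+TGFb (1.77, SE 0.37, adjusted p = 0.015), and HEY2 rose by 0.58 (adjusted p = 0.023). These were 2 of 12 Notch genes, with a median of 0.19 and, after GC centring, -0.07 with the same 2 and 0 counts. The Notch target HES1 was at 0.19 and was not called. Both HEY calls ended without any 1 of the 4 libraries (0.094 to 0.17).

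In the FGF and ERK response list 3 of 15 genes rose, none fell, and the median was 0.09, with 3 and 0 called after GC centring as well. PHLDA1 was at 528 and 515 in E7+NODAL and at 321 and 307 in E7+TGFb (0.73, SE 0.11, adjusted p = 0.0028) and kept its call without any 1 of the 4 libraries. The feedback inhibitors SPRY1 and SPRY2 rose by 0.52 and 0.44 (adjusted p = 0.012 and 0.021 in limma), calls that ended without any 1 of the 4 libraries (0.092 to 0.14). DUSP6 and SPRY4, further feedback genes of the pathway, were at 0.05 and 0.04.

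The core pluripotency factors POU5F1, SOX2 and NANOG did not differ detectably. A limit is that pseudogene copies of POU5F1 and NANOG may share their reads. POU5F1, SOX2 and NANOG had log2 fold changes of 0.08, -0.09 and 0.03 with standard errors of 0.15, 0.08 and 0.11 (adjusted p = 0.78, 0.53 and 0.89 in limma). Of 20 core genes 3 fell and none rose, with a median of -0.05. Without the Activin A libraries 7 of the 20 were called lower and 2 higher, against 13.7% and 11.6% of all genes tested. LIN28A (-0.32), DNMT3B (-0.34) and LIN28B (-0.29) were among those lower there (adjusted p = 0.0014, 0.0011 and 0.0047 in limma). GDF3 (0.35) and TERF1 (0.15) were the 2 higher (0.019 and 0.047). LIN28A, at an adjusted p of 0.054 in the 16 libraries, was also called lower in edgeR (0.041) and DESeq2 (0.013). PRDM14, a regulator that keeps the stem cell state, was at 823 and 832 in E7+NODAL and at 1469 and 1429 in E7+TGFb (-0.81, SE 0.12, adjusted p = 0.0023), and plain E7 averaged 1178. L1TD1, an RNA-binding protein of stem cells, was at 15623 and 15797 in E7+NODAL and at 21608 and 21486 in E7+TGFb (-0.46, adjusted p = 0.018). ZFP42 fell by 0.28 (adjusted p = 0.046). After GC centring PRDM14 alone of the 3 was called, with L1TD1 at -0.29 (adjusted p = 0.11) and ZFP42 at -0.18 (0.23). PRDM14 kept its call without any 1 of the 4 libraries, and the others did not (0.11 to 0.22). Quantile normalisation ended the calls of L1TD1 (0.21) and ZFP42 (0.24), and scaling to the same total that of ZFP42 (0.11).

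LINC-ROR, a long noncoding RNA of stem cells, was at 46.5 and 45.2 in E7+NODAL and at 134 and 107 in E7+TGFb (-1.37, adjusted p = 0.0059), a call that ended without E7+NODAL replicate 1 or 2 or E7+TGFb replicate 1 (0.062 to 0.079). Among 18 genes of the primed state, ZIC2 and ZIC5, zinc finger factors next to each other in the genome, rose by 0.53 and 0.46 (adjusted p = 0.0047 and 0.0078 in limma) and OTX2 fell. ZIC2 lost its call without E7+NODAL replicate 1 or 2 or E7+TGFb replicate 2, and ZIC5 without any of the 4 (0.052 to 0.10). After GC centring 2 primed genes were called higher and none lower. None of 10 naive state genes was called.

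Of 15 neuroectoderm genes 1 rose and 2 fell, and the median was 0.04, or -0.22 after GC centring with the same counts. SOX1, a neural factor, was at 49.6 and 42.4 in E7+NODAL and at 11.5 and 17.8 in E7+TGFb (1.61, adjusted p = 0.017). SOX21 fell, at 172 and 213 in E7+NODAL and 298 and 303 in E7+TGFb (-0.65, adjusted p = 0.039), as did NEUROG3 (-0.75, adjusted p = 0.038). PAX6 stayed low, at 13.7 and 9.42 in E7+NODAL and 5.25 and 5.62 in E7+TGFb, and was not called. SOX1, SOX21 and NEUROG3 lost their calls without any 1 of the 4 libraries (0.060 to 0.27).

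Among called genes with a mean of at least 100 in the higher group, the one that fell most was CYP1B1, a cytochrome P450 that oxidises steroids, retinoids and xenobiotics. It was at 23.2 and 36.8 in E7+NODAL and at 154 and 161 in E7+TGFb, against a plain E7 mean of 160. The groups were far apart, at -2.39 on the log2 scale (SE 0.21, adjusted p = 0.00014), and the call held without any 1 of the 4 libraries. CYP1B1 is a target of the aryl hydrocarbon receptor. AHRR, the repressor of that receptor and also its target, rose in contrast, at 24.3 and 32.0 in E7+NODAL and 11.5 and 12.2 in E7+TGFb (1.17, adjusted p = 0.025). AHRR lost its call without any 1 of the 4 libraries (0.094 to 0.18), after GC centring (0.060) and in DESeq2 (0.061). TIPARP, a further target, was at -0.36 and was not called. These 2 were the genes called of 10 in the retinoid and aryl hydrocarbon receptor list, whose median was 0.09. After GC centring the calls were CYP1B1 and STRA6, a retinol transporter, both lower (STRA6 at -0.59, adjusted p = 0.0096, against -0.37 and 0.077 before).

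Metallothioneins, small cysteine-rich proteins that bind zinc and copper and are induced by metals through the factor MTF1, held several of the genes that fell most. Their promoters carry metal response elements, whose core is TGCACNC or TGCGCNC. The 250 bases before the RefSeq start of MT1H, the member that fell most, and of MT2A, which was not called, are shown from GRCh38.p14 in the plus strand, with each match to the core on either strand in capitals.
MT1H, chr16:56669564-56669813: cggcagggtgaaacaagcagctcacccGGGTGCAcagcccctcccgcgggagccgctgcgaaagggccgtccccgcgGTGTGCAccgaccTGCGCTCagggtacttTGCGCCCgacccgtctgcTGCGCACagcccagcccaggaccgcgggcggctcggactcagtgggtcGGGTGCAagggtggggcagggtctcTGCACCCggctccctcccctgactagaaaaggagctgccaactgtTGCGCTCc
MT2A, chr16:56608334-56608583: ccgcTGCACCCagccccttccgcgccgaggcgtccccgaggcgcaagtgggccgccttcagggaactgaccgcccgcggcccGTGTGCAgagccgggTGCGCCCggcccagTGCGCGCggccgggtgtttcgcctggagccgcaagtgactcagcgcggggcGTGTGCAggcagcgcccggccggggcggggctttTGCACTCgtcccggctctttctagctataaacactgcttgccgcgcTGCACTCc
The core matched 8 times before MT1H, 7 times before MT2A and 4 times before MT1X. Of 35116 promoters of the same length 8719 (24.8%) held at least 1 match, so a match describes the sequence and not a bound site.

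MT1H was at 25.4 and 18.8 in E7+NODAL and at 137 and 96.5 in E7+TGFb (-2.34, SE 0.27, adjusted p = 0.00065). MT1G, a neighbour on chromosome 16, was at 84.5 and 106 in E7+NODAL and at 317 and 330 in E7+TGFb (-1.76, SE 0.17, adjusted p = 0.00028). MT1E was at 119 and 86.7 in E7+NODAL and at 252 and 253 in E7+TGFb (-1.30, SE 0.20, adjusted p = 0.0039). For all 3 the E7+NODAL libraries lay below both E7+TGFb libraries, and the plain E7 means of 146, 401 and 335 were above E7+TGFb. SLC30A1, a zinc exporter that MTF1 also induces, fell by 0.52 (756 and 765 in E7+NODAL, 1114 and 1075 in E7+TGFb; adjusted p = 0.028).

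The other members, named outside the rule for naming genes, were not called. MT1X was at 212 and 154 in E7+NODAL and 288 and 310 in E7+TGFb (-0.72, adjusted p = 0.16). MT1F and MT2A were at -0.40 and -0.24. So 4 of 8 genes of this list fell, none rose, all 8 log2 fold changes were below 0, and the median was -0.62 against 0.01 for all genes. After GC centring 3 fell, and SLC30A1 was at -0.40 (adjusted p = 0.067). MT1H and MT1G kept their calls without any 1 of the 4 libraries, MT1E lost it without E7+NODAL replicate 2 (0.060), and SLC30A1 without any of the 4 (0.13 to 0.16). Reads of the near-identical MT1 genes may be shared among them.

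The remaining genes among the 15 that rose most included PEG3, an imprinted gene expressed from the paternal copy, at 132 and 125 in E7+NODAL and 32.5 and 34.7 in E7+TGFb (1.91, SE 0.24, adjusted p = 0.0016). GRIN2D, a subunit of the NMDA glutamate receptor, was at 462 and 450 in E7+NODAL and 140 and 141 in E7+TGFb (1.69, SE 0.19, adjusted p = 0.00065). C1QL1 and NELL1, which encode secreted proteins, rose by 1.99 and 1.87, and MMP9, a gelatinase, by 1.69. The other 7 loci of the set, noncoding or unclassified, ranged from AC005261.2 (1.67) to AL035071.1 (2.09). PEG3, GRIN2D, C1QL1, NELL1, LINC01355 and AL627309.8 kept their calls without any 1 of the 4 libraries, and MMP9 lost it without any of them (0.092 to 0.11), as did AL035071.1, AC022140.2 and AC005261.2 (0.091 to 0.24). AL513534.1 lost its call without E7+NODAL replicate 1 or 2 or E7+TGFb replicate 2 (0.087 to 0.12), and AL627309.7 without E7+NODAL replicate 1 or E7+TGFb replicate 1 (0.051 and 0.052). AC005261.2 is annotated as antisense and AL513534.1 as overlapping another gene, and the AL627309 loci have near-identical copies, so their values are uncertain. PWAR6, a noncoding RNA of the imprinted Prader-Willi region on chromosome 15, had the smallest adjusted p of all genes and was named for it after its values were seen. It was at 8656 and 9136 in E7+NODAL and at 3124 and 3255 in E7+TGFb (1.48, SE 0.12, adjusted p = 0.00013).

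Beside CYP1B1 and the metallothioneins, the genes that fell most included ST8SIA3, a sialyltransferase, at 131 and 123 in E7+NODAL and 322 and 311 in E7+TGFb (-1.31, SE 0.20, adjusted p = 0.0029). GDPD2, a phosphodiesterase, was at 60.2 and 60.3 in E7+NODAL and 148 and 137 in E7+TGFb (-1.23), and the cadherin CDH6 at 41.2 and 48.1 in E7+NODAL and 102 and 102 in E7+TGFb (-1.18). COL12A1, a fibril-associated collagen, fell by 1.66, the microtubule gene MAP2 by 1.54 and the calcium channel RYR2 by 1.19. ST8SIA3, GDPD2 and CDH6 kept their calls without any 1 of the 4 libraries. COL12A1, MAP2, HECW1, RGS7BP, CUZD1 and RYR2 lost theirs without any 1 of them (0.12 to 0.23), and ALG11 lost its call without E7+NODAL replicate 1 or E7+TGFb replicate 1 or 2 (0.14 to 0.27). MAP2, RGS7BP, CUZD1, ALG11 and RYR2 were not called after GC centring (0.051 to 0.074), and scaling to the same total ended the calls of MAP2 and RYR2 (0.057 each).

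Matrix genes were split. COL6A2 was at 1683 and 1658 in E7+NODAL and at 851 and 916 in E7+TGFb (0.92, SE 0.10, adjusted p = 0.00063), and COL6A1, its partner in type VI collagen, at 5823 and 5939 in E7+NODAL and 3596 and 3662 in E7+TGFb (0.70, adjusted p = 0.0022). COL18A1 rose by 0.58 and SPARC by 0.39, while ITGA6, a laminin receptor subunit, fell by 0.67 (adjusted p = 0.027). That made 4 higher and 1 lower of 23, with a median of 0.17, and 2 higher and none lower after GC centring. COL6A1 was then at 0.38 (adjusted p = 0.14), COL18A1 at 0.16 (0.68), ITGA6 at -0.54 (0.062) and COL6A2 at 0.49 (0.023). COL6A1 and COL6A2 kept their calls without any 1 of the 4 libraries, and COL18A1 and ITGA6 did not (0.063 to 0.19).

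**Figure D3:**
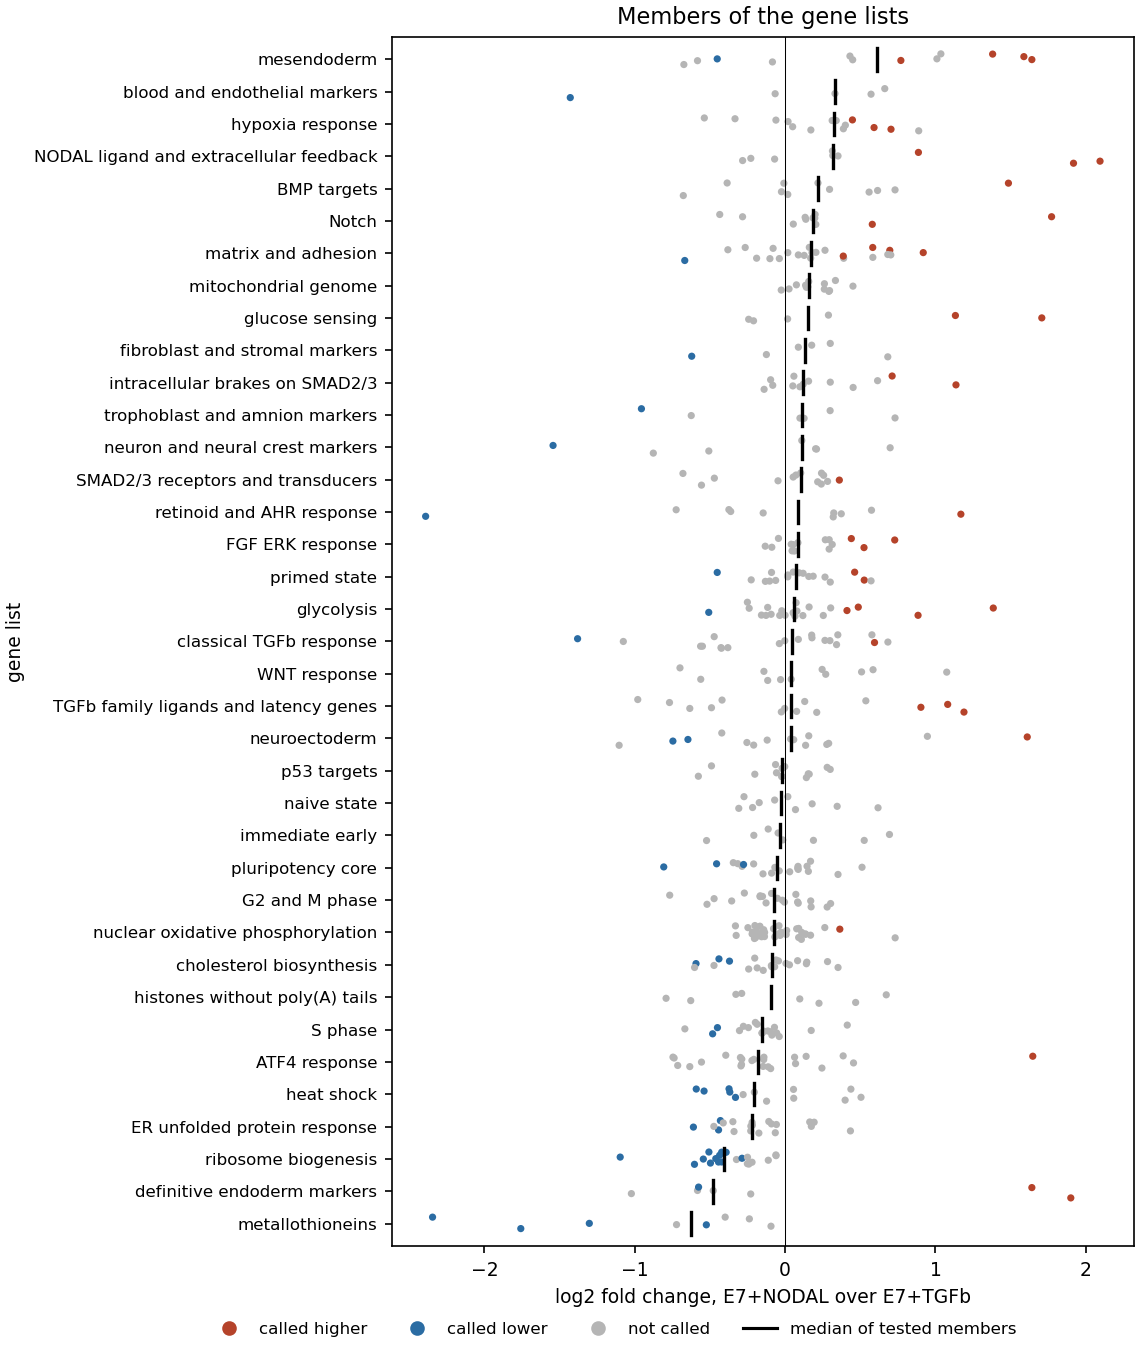
Log2 fold change of E7+NODAL over E7+TGFb (horizontal axis) for the tested members of each gene list (rows, ordered by median). Red points rose, blue points fell, grey points were not called, and the black bar is the median of the tested members; the mesendoderm median of 0.61 is the highest and the metallothionein median of -0.62 the lowest.

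Ribosome biogenesis was the list with the most calls in 1 direction. Of 20 genes that build ribosomes in the nucleolus 12 fell and none rose, all 20 log2 fold changes were below 0, and the median was -0.41 against 0.01 for all genes. UTP20, a component of the small subunit processome, was at 1447 and 1550 in E7+NODAL and at 3122 and 3290 in E7+TGFb (-1.10, SE 0.24, adjusted p = 0.017). POLR1B, the second largest subunit of RNA polymerase I, was at 1116 and 1187 in E7+NODAL and at 1762 and 1735 in E7+TGFb (-0.60, adjusted p = 0.015). NOP16 and RRS1 fell by 0.54 and 0.51. After GC centring 11 fell and the median was again -0.41. The calls of these 4 ended without any 1 of the 4 libraries (0.056 to 0.22).

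UTP14A, a processome gene outside the list and named after its values were seen, was at 444 and 409 in E7+NODAL and at 837 and 840 in E7+TGFb (-0.98, adjusted p = 0.00016). The plain E7 means of UTP20 and POLR1B, 2168 and 1522, fell between the 2 ligands, as for 687 of the 1262 called genes. For UTP14A, RRS1 and NOP16 the plain E7 means, 874, 963 and 1032, were above both.

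Several chaperone genes fell. HSPA8, the constitutive HSP70, was at 36656 and 35834 in E7+NODAL and at 54735 and 54452 in E7+TGFb (-0.59, SE 0.11, adjusted p = 0.0071). Its partner DNAJA1 fell by 0.54, HSPH1 by 0.37 and HSP90AA1 by 0.37. In all 5 of 13 heat shock genes fell and none rose, with a median of -0.20. The near-identical inducible genes HSPA1A and HSPA1B, which rise with stress, were at 0.40 and 0.44, neither called. In the ER, HSPA5 was at 11765 and 11802 in E7+NODAL and at 15899 and 15862 in E7+TGFb (-0.43, adjusted p = 0.016), CANX fell by 0.61 and DNAJB11 by 0.44, which were the calls among 20 genes of the unfolded protein response (median -0.22).

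After GC centring 1 heat shock gene and 2 ER genes were called lower: HSPA8 was at -0.54 (adjusted p = 0.018), and HSPA5 at -0.31 (0.081), DNAJA1 at -0.40 (0.068), HSPH1 at -0.22 (0.15), HSP90AA1 at -0.27 (0.18) and DNAJB11 at -0.29 (0.18) were not. All of these chaperone calls ended without any 1 of the 4 libraries (0.064 to 0.21). Quantile normalisation ended those of CANX (0.11), HSPH1 (0.10) and HSP90AA1 (0.097), and scaling to the same total that of HSP90AA1 (0.075).

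Metabolic genes were called in both directions. In glycolysis 4 of 23 genes rose and 1 fell (median 0.06), where 4.13% of all genes tested rose and 3.42% fell. SLC16A3, the lactate exporter MCT4, was at 249 and 188 in E7+NODAL and at 91.3 and 74.0 in E7+TGFb (1.38, SE 0.25, adjusted p = 0.0077), and SLC16A1, the transporter MCT1, fell, at 8140 and 8044 in E7+NODAL and 11481 and 11533 in E7+TGFb (-0.51, adjusted p = 0.0037). PFKFB4, which regulates phosphofructokinase, rose by 0.88, ENO2 by 0.49 and PFKL by 0.41, while GAPDH, PGK1, LDHA and PKM lay between -0.25 and 0.12 and were not called. Of 14 hypoxia response genes 3 rose and none fell (median 0.33): BNIP3 by 0.70, MXI1 by 0.59 and BNIP3L by 0.45. After GC centring the counts were 2 higher and 2 lower in glycolysis, with GAPDH now called lower (-0.41, adjusted p = 0.031), and 5 higher in the hypoxia list.

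E7+NODAL replicate 1 stood above replicate 2 for several of these genes, as for BNIP3 at 2802 and 1985 in E7+NODAL and 1429 and 1465 in E7+TGFb. BNIP3, MXI1, BNIP3L, PFKFB4 and ENO2 lost their calls without any 1 of the 4 libraries (0.050 to 0.31). SLC16A3 lost it without E7+NODAL replicate 1 (0.10) or E7+TGFb replicate 2 (0.091), and SLC16A1 without E7+NODAL replicate 1 (0.051) or 2 (0.053).

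Genes that respond to glucose and amino acid supply included DDIT4, a brake on the growth kinase mTORC1. It was at 278 and 183 in E7+NODAL and at 71.4 and 71.2 in E7+TGFb (1.65, SE 0.37, adjusted p = 0.019), and it was the 1 gene called of 24 in the ATF4 response, whose median was -0.18. Without the Activin A libraries 3 genes of the ATF4 response were called higher and 10 lower, against 11.6% and 13.7% of all genes tested. After GC centring 2 genes of the ATF4 response were also called lower, the factor ATF4 itself (-0.41, adjusted p = 0.0499) and the amino acid transporter SLC7A5 (-0.95, 0.047). TXNIP, an arrestin-like protein that restrains glucose uptake, was at 97.2 and 94.2 in E7+NODAL and at 44.1 and 42.2 in E7+TGFb (1.13, SE 0.25, adjusted p = 0.017). MLXIPL, a glucose-responsive transcription factor, rose by 1.71 at low counts, 34.9 and 35.8 in E7+NODAL and 8.39 and 12.2 in E7+TGFb. TXNIP and MLXIPL were 2 of 6 glucose sensing genes, and 1 was called after GC centring. All 3 calls ended without any 1 of the 4 libraries (0.068 to 0.22).

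Of 21 cholesterol synthesis genes 3 fell, among them SC5D by 0.37, and the list median was -0.09, with 3 lower after GC centring as well. SC5D was not among those (adjusted p = 0.18), and its call also ended with quantile normalisation (0.13) and at the same total (0.083). Of 19 S phase genes CDC6 and POLA1, which act in DNA replication, fell by 0.45 and 0.48 and none rose (median -0.15). POLA1 was not called after GC centring (0.072) or at the same total (0.061). None of 20 genes of G2 and M phase was called. The calls of SC5D, CDC6 and POLA1 ended without any 1 of the 4 libraries (0.061 to 0.27). In oxidative phosphorylation 1 of 37 nuclear genes rose, where 4.13% of all genes tested rose. It was SDHA, by 0.36, a call that ended without any 1 of the 4 libraries and was made after GC centring as well. None of the 13 mitochondrially encoded genes was called, although 12 of their log2 fold changes were above 0 (median 0.16) and their reads summed to 920369 and 923004 in E7+NODAL and 805849 and 798485 in E7+TGFb. None of the WNT response, p53 target, immediate early or histone genes was called, but the immediate early gene ARC was called lower after GC centring (-0.95, adjusted p = 0.015, against -0.52 and 0.14 before).

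Markers of other cell types that the culture could hold were tested for 6 of 12 fibroblast genes, 6 of 14 trophoblast, 7 of 12 endoderm, 5 of 12 blood and endothelial and 7 of 12 neuron genes, and the rest were low or not analysed here. The 7 endoderm markers tested summed to 1160 and 1162 normalised reads in E7+NODAL and to 1683 and 1626 in E7+TGFb. KIT, which stem cells also express, made most of that sum and fell by 0.58, while FOXA1 rose to 45.4 and 46.2 in E7+NODAL, against 9.44 and 14.1 in E7+TGFb (1.90, adjusted p = 0.019), and GATA4 is given above. Fibroblast markers summed to 5357 and 5128 in E7+NODAL and 4380 and 4388 in E7+TGFb, mostly THY1, which stem cells also express, with PDGFRA called lower (-0.62). Trophoblast markers summed to 5579 and 5324 in E7+NODAL and 4974 and 5034 in E7+TGFb, with IGFBP3 called lower (-0.96). Blood and endothelial markers summed to 1841 and 1995 in E7+NODAL and 2052 and 1968 in E7+TGFb, with TEK called lower (-1.43). Neuron markers summed to 3096 and 3123 in E7+NODAL and 2907 and 2814 in E7+TGFb, with MAP2 called lower. No list had more than 3 calls, and their part in the results was not tested. The calls of FOXA1, KIT, PDGFRA and TEK ended without any 1 of the 4 libraries (0.083 to 0.21), and that of IGFBP3 without E7+NODAL replicate 2 (0.081) or E7+TGFb replicate 2 (0.087). PDGFRA was not called in edgeR (0.052), in DESeq2 (0.12), at the same total (0.054) or after GC centring (0.10), and centring also ended the calls of KIT (0.064) and TEK (0.055). After it 1 endoderm marker was called higher, and 2 trophoblast markers were called lower, IGFBP3 and the keratin KRT7 (-0.88, adjusted p = 0.021, against -0.62 and 0.085 before). None of the fibroblast, blood and endothelial or neuron markers was then called.

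The same ligands were compared with 2DG present in 4 other libraries, 2 of E7+NODAL+2DG and 2 of E7+TGFb+2DG, which share none with the comparison above. There, 234 genes were called (1.4%), 155 higher (0.927%) and 79 lower (0.473%). Of the 1262 genes called without 2DG, 1152 (91.3%) had the same sign with 2DG, against 68.4% of all genes tested. Both comparisons called 157, which is 12.4% of the calls without 2DG and 67.1% of those with it, and 156 of them had the same direction. The exception was NETO2, an accessory subunit of kainate receptors, named for that reason: its log2 fold change was -0.42 without 2DG and 0.39 with it. Across all genes tested Pearson's r between the log2 fold changes was 0.52 and Spearman's rho 0.51. This correlation is across genes, which are not independent replicates. The difference was smaller with 2DG for 90.3% of the called genes, which were chosen for their size without 2DG, and for 55.9% of all genes.

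**Figure D4:**
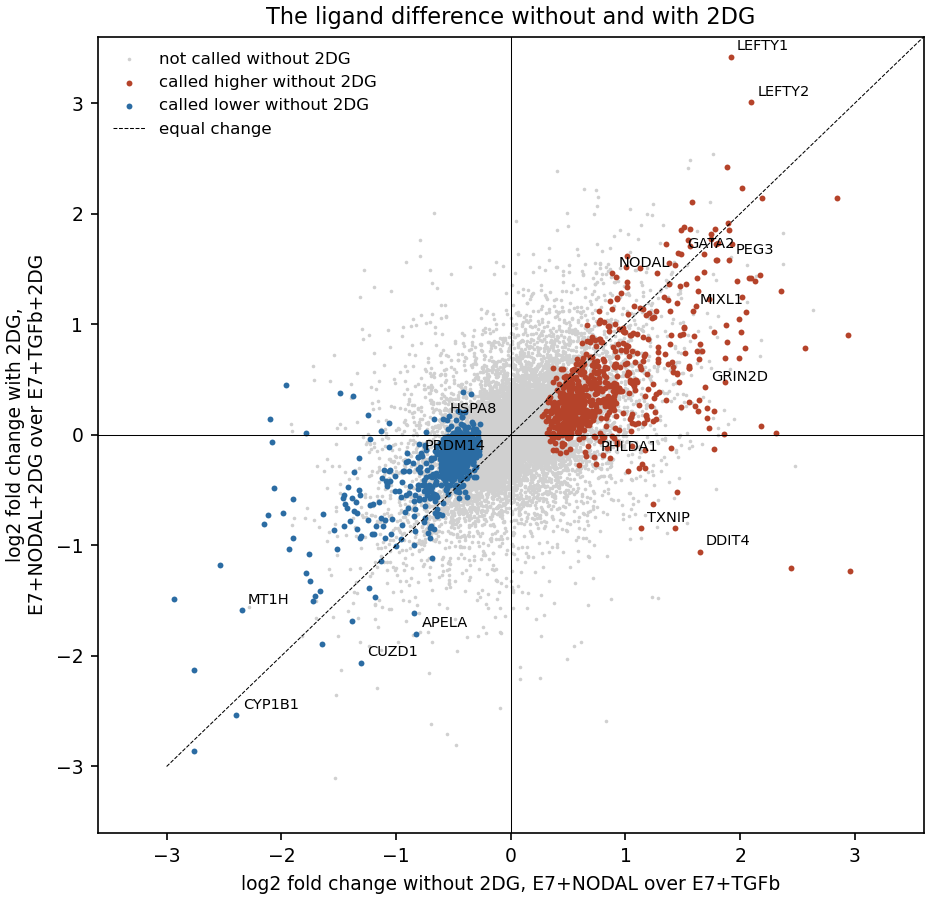
Log2 fold change of NODAL over TGFb media with 2DG (vertical axis) against that without 2DG (horizontal axis) for the 16714 genes tested; red and blue points were called higher and lower without 2DG, and the dashed line marks equal change. LEFTY1 lies above the line at 1.92 and 3.42, CYP1B1 on it at -2.39 and -2.53, and DDIT4 and TXNIP lie to the lower right with opposite signs.

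LEFTY1, LEFTY2 and NODAL were also called with 2DG, where their log2 fold changes were larger and their levels lower in both media. LEFTY1 was at 237 and 232 in E7+NODAL+2DG and at 22.5 and 19.6 in E7+TGFb+2DG, with no overlap and the difference at 3.42 on the log2 scale (SE 0.26, adjusted p = 2.3e-05). LEFTY2 was at 50.8 and 54.4 in E7+NODAL+2DG and 4.90 and 6.53 in E7+TGFb+2DG (3.01), and NODAL at 581 and 574 in E7+NODAL+2DG and 246 and 177 in E7+TGFb+2DG (1.46). The interaction, the log2 fold change with 2DG less that without, was 1.5 for LEFTY1 (SE 0.37, adjusted p = 0.50 in limma) and was called without the Activin A libraries (adjusted p = 0.0049). Metallothioneins were lower with 2DG as well, with 3 of 8 called: MT1H at -1.58, MT1G at -1.08 and MT1E at -0.91. Of the mesendoderm genes 4 were called higher with 2DG, among them FGF8 (1.55), WNT3 (1.12) and MIXL1 (1.12), and OTX2 was called lower (-0.57, adjusted p = 0.043). GATA2 was at 1.63.

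Other groups held few or no calls with 2DG. None of the 20 ribosome biogenesis genes and none of the 13 heat shock genes was called with 2DG, and their medians were -0.09 and 0.11. PRDM14 was at -0.20 (adjusted p = 0.41) and HSPA8 at 0.14 (adjusted p = 0.52). The processome gene UTP14A, outside the lists, was called lower with 2DG as well (-0.51, adjusted p = 0.015 in limma). So was the ER gene HSPA5 (-0.40, adjusted p = 0.0499), the 1 gene called of 20 in the unfolded protein response. In the classical TGFb response 3 genes were called lower with 2DG and none higher (median -0.26), among them TAGLN, at 644 and 709 in E7+NODAL+2DG and 1589 and 1621 in E7+TGFb+2DG (-1.25). DDIT4 was at 558 and 483 in E7+NODAL+2DG and 1052 and 1111 in E7+TGFb+2DG (-1.06, not called), the opposite side from without 2DG. TXNIP was likewise at 992 and 1012 in E7+NODAL+2DG and 1802 and 1804 in E7+TGFb+2DG (-0.85, not called). None of the 24 ATF4 response genes, DDIT4 among them, was called with 2DG. Only 1 of their log2 fold changes was above 0 there, and the median was -0.59. Without the Activin A libraries 5 of the 24 were called for the interaction, against 1.46% of all genes tested.

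No gene of the 16714 was called for the interaction itself (0%). Before adjustment 1217 had a p under 0.05, and the lowest adjusted p was 0.095. edgeR called 0 and DESeq2 15. The interaction was -2.70 for DDIT4 (SE 0.52, adjusted p = 0.19) and -1.98 for TXNIP (SE 0.35, adjusted p = 0.17). In the fit without the Activin A libraries 244 genes (1.46%) were called, 134 higher (0.802%) and 110 lower (0.658%), with adjusted p of 4.6e-06 for DDIT4 and 0.00016 for TXNIP. In that fit HSPA8 (0.73, adjusted p = 0.00018), PHLDA1 (-0.93, 0.0018), GRIN2D (-1.26, 0.0066) and PRDM14 (0.61, 0.021) were called too. Leaving out Activin A replicate 1 or 2 gave 15 calls each and leaving out a replicate of Activin A with 2DG 8 each.

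Genes called between the ligands differed in GC content by direction. Among the quintile of genes with the highest transcript GC content, 57.7% and above, 323 rose and 10 fell. Among the lowest quintile, up to 41.0%, 65 rose and 204 fell. After centring these became 60 and 74 in the highest quintile, and 105 and 64 in the lowest. Within each library the correlation of a gene's deviation from its mean with GC content was 0.20 and 0.14 in E7+NODAL, -0.26 and -0.31 in E7+TGFb and -0.35 and -0.18 in plain E7, so replicates of the 2 compared groups lay on opposite sides of 0. Expression level moved with direction as well: in the quintile of genes with the most reads 79 rose and 281 fell. Spearman's rho between transcript length and the log2 fold change was -0.13 without 2DG. With 2DG it was -0.29, where rho with GC content was 0.19. The difference between the 2 E7+NODAL replicates had a rho of -0.24 with length, and that between the 2 E7+TGFb replicates -0.03. The part of length in the results was not tested.

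**Figure D5:**
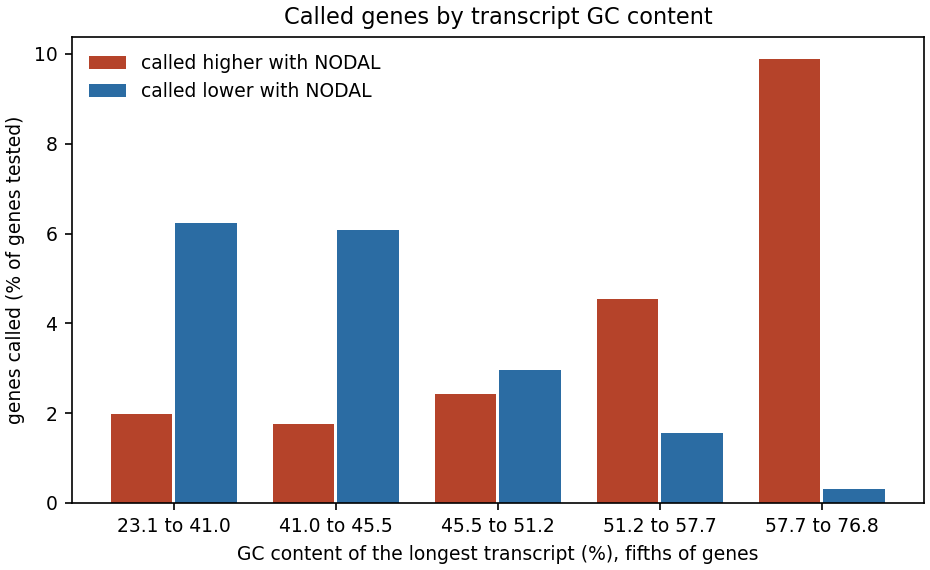
Share of genes called higher (red) and lower (blue) in E7+NODAL against E7+TGFb, in percent of the genes tested (vertical axis), for quintiles of genes by the GC content of their longest transcript (horizontal axis). Genes called higher make 9.89% of the top quintile and 1.98% of the lowest, and genes called lower 0.306% and 6.23%.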

How the data were processed

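Poly(A) RNA of all 16 samples was sequenced paired-end on an Illumina NextSeq 500, per the labels. The deposited table holds normalised read counts, a signal that the authors made with 1 size factor for each library. Tools listed in the submitters' processing notes were featureCounts 1.5.3, STAR, Trimmomatic 0.36 and DESeq2 1.26.0, with hg38 as the build; their roles, the annotation and the strand setting are not given in the sources used here. All values (100%) divided by the worth of 1 read in their library gave whole numbers within 1e-06, so whole reads were recovered, 14600479 to 17630329 a library. The smallest recovered count was 1, so the table holds no gene that lacked reads in a library. A gene silent in a group could therefore not appear.

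A gene was tested if 2 or more libraries reached 10 (16714 of 17738). R 4.3.3 and limma 3.58.1 fitted log2 of the value plus 1 with 8 group means in 16 libraries, an intensity trend and two-sided Benjamini-Hochberg adjusted p. Fold changes on this scale understate those of low genes. edgeR 4.0.16 and DESeq2 1.42.0 ran on recovered reads as alternatives. The fit was tested on simulated data with the same spread in all groups and no trend with GC content. That test cannot show how the Activin A spread or GC content affected the calls. Positions, lengths and GC content came from GENCODE 29 (17317 symbols matched, 97.6%), promoters from RefSeq.

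Members and lists were chosen with earlier results of these data known. Named genes were the 15 called with the largest change each way (higher mean at least 100, libraries not overlapping), up to 4 called members per list, and all members of 8 signalling and lineage lists; others are said to be outside the rule or are further members of a list given as values. Alternatives were other scalings, pseudocounts, filters, library sets, weights, a replicate block, each library left out, and GC centring in 50 bins, added later. Some genes of the lists are counted but not reported by name here.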

Additional observations from a re-analysis of the deposited data

How the results depend on the processing

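The comparison without 2DG called 1262 genes. The count was 4233 without the 4 Activin A libraries, 5792 in the 4 compared libraries alone, 5401 with a weight per group, 730 after GC centring (added after the data were seen) and 269 at a log2 fold change of at least 1. It ran from 83 to 3205 with each library left out. The other scalings (TMM, equal totals, quantiles), other pseudocounts and filters, edgeR and DESeq2 gave 1008 to 1467. With 2DG, 234 genes were called, against 2615 without the Activin A libraries, 5168 in the 4 libraries alone, 3906 with weights, 376 in DESeq2 and 98 at a log2 fold change of at least 1, and from 22 to 1563 with each library left out. The interaction called 0, against 244 without the Activin A libraries, 1895 in the libraries of the comparison alone, 730 with weights and 15 in DESeq2, and 0 to 15 with each library left out. The cause of these moves was not tested, beyond the fewer libraries and the Activin A spread that the fits without them leave out.

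The replicate numbers gave little sign of pairing the samples: of 28 pairs of groups 3 had replicate differences correlated above 0.1. The correlation between E7+NODAL and E7+TGFb was 0.02. Some pairs were correlated negatively, such as E7 and E7+ActivinA (-0.39) and E7+2DG and E7+ActivinA (-0.25). With the replicate block the comparison without 2DG called 956 genes in 16 libraries and 6040 in its own libraries; with 2DG 151 and 5478; the interaction 0 and 1949.

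Several calls near the threshold also ended without 1 library of another group. For OTX2, ZFP42, SDHA, BNIP3L, HSP90AA1 and PDGFRA these were either library of E7, E7+2DG, E7+NODAL+2DG or E7+TGFb+2DG, and for GATA4 and RYR2 also of E7+ActivinA+2DG. For NEUROG3, NOP16, MLXIPL, BNIP3, SC5D, KIT and MAP2 they were those of the 2DG groups other than E7+ActivinA+2DG, and for SOX21, ENO2, TEK, HECW1 and AC022140.2 those of E7+NODAL+2DG and E7+TGFb+2DG. Those of RGS7BP and CUZD1 were of E7+TGFb+2DG, those of ALG11 of E7+NODAL+2DG, and those of AL035071.1 were the libraries of E7+2DG, E7+NODAL+2DG and E7+TGFb+2DG and E7+ActivinA+2DG replicate 1.

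Further calls ended with quantile normalisation (AL035071.1 0.055, ITGA5 0.064, NOP16 0.059, MLXIPL 0.067, KIT 0.052), at the same total (NEUROG3 0.055, SOX21 0.057, SLC30A1 0.052, NOP16 0.053, KIT 0.068), after GC centring (ENO2 0.080, MLXIPL 0.077, PFKL 0.47), in edgeR (ZFP42 0.054), with no filter (ZFP42 0.050, HSP90AA1 0.052) and with a pseudocount of 8 (GATA4 0.052), all as adjusted p.

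Of 188 named genes 95 were called, 20 under every setting and 21 with every library left out, and none reversed. Precision is limited by 2 libraries a group and, for genes near 10 reads, by counting error.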
